A study of Mus musculus with 6 samples.

Results

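The interferon-induced GTPases were examined in whole-tumour RNA from mice treated with luteolin or with vehicle. The 10 genes described here were the rows of the deposited gene table with the symbols Gbp2, Gbp3, Gbp4, Gbp5, Gbp6 and Gbp7, of the guanylate-binding protein (GBP) family, and Irgm1, Irgm2, Igtp and Iigp1, of the immunity-related GTPase (IRG) family. They were 10 of the 21720 genes listed, and all 10 passed the filter on low counts. H22 mouse hepatocellular carcinoma cells, labelled as wild type, had been grown under the skin of female BALB/c mice aged 6 to 8 weeks. The control group received 0.5% carboxymethyl cellulose sodium and the luteolin group received luteolin, a plant flavonoid, at 200 mg/kg. Both were given by gavage once a day for 21 days in 0.2 mL, from a tumour volume of about 50 mm3 according to the labels. Each group had 3 libraries. No source states that each library came from its own animal, so the p values measure the spread between these libraries, which may be technical.

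GBP and IRG proteins are large GTPases that cells make in quantity after exposure to interferon, above all interferon-γ. They bind GTP, assemble into oligomers on the vacuoles that enclose intracellular microbes, or on the microbes themselves, and help to break these membranes and to expose their contents to inflammasomes. Transcription is switched on through short DNA elements near the start of these genes, the gamma-activated site (GAS) and the interferon-stimulated response element (ISRE). Macrophages, dendritic cells, endothelial cells, fibroblasts and many tumour cells respond in this way, so in a whole tumour the transcripts can come from several cell types. A larger number of cells of one type and more RNA per cell cannot be told apart in such material.

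Values are given as CPM, counts scaled to the normalized library total. The library totals lay between 61081637 and 80442954. Luteolin replicate 2 stood apart from the other libraries. It had the largest total, and the summed level of 8 keratinocyte markers, genes of the skin epithelium, was 8698 CPM there, against 365 and 15.4 CPM in luteolin replicates 1 and 3 and 3.22 to 4.33 CPM in the controls. In luteolin replicates 1 and 3 the sum was also above that of every control. Counts are therefore also given without luteolin replicate 2. Of the hepatocyte and hepatoma markers, Afp was present at 32.6 to 66.6 CPM in every library, Alb varied from 0.867 to 132 CPM, and Ttr and Hnf4a stayed under 0.4 CPM.

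Luteolin-treated tumours contained more transcript of nearly all of these GTPases. Of the 10 genes, 7 rose and 0 fell at an adjusted p under 0.05 (edgeR quasi-likelihood test, Benjamini-Hochberg over 14963 genes). Of all genes tested, 1.34% rose and 0.187% fell at this threshold. The 7 were Gbp3, Gbp4, Gbp5, Gbp7, Irgm1, Irgm2 and Igtp. At the threshold of the study, an unadjusted p under 0.05 with a log2 fold change over 1, 8 of the 10 were up-regulated and 0 down-regulated, against 11.3% and 1.52% of all genes tested. In 9 of the 10, all 3 luteolin libraries lay above all 3 control libraries, which was the case for 15.9% of all genes tested. The median log2 fold change was 1.66 over the 10 genes, 1.26 over the 6 GBP genes and 1.86 over the 4 IRG genes, against -0.01 over all genes tested. DESeq2 called 8 of the 10 at an adjusted p under 0.05, and the added gene was Gbp6. At this threshold it called 8.67% of the 17790 genes it fitted higher and 2.33% lower. That total includes genes without a p value, which could not be called, and 17478 genes had one.

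The adjusted calls depended on single libraries, whereas the direction did not. With control replicate 1, control replicate 2, control replicate 3 or luteolin replicate 1 left out, edgeR called 0 of the 10 genes and 0 genes of the whole table at an adjusted p under 0.05, while the unadjusted p was under 0.05 for 8, 8, 10 and 8 of the 10. In the same 4 fits, 10.7%, 9.52%, 11.1% and 12.7% of all genes were higher at an unadjusted p under 0.05. Leaving out luteolin replicate 3 gave a count of 3 (Gbp3, Gbp5 and Igtp), with 0.993% of all genes called higher. Leaving out luteolin replicate 2 gave 7, the same genes as with all libraries, with 1.82% of all genes called higher. At the study's threshold that fit had 9 of the 10 and 7.52% of all genes higher. Every log2 fold change of the 10 genes stayed above 0 in each of these fits.

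**Figure D1:**
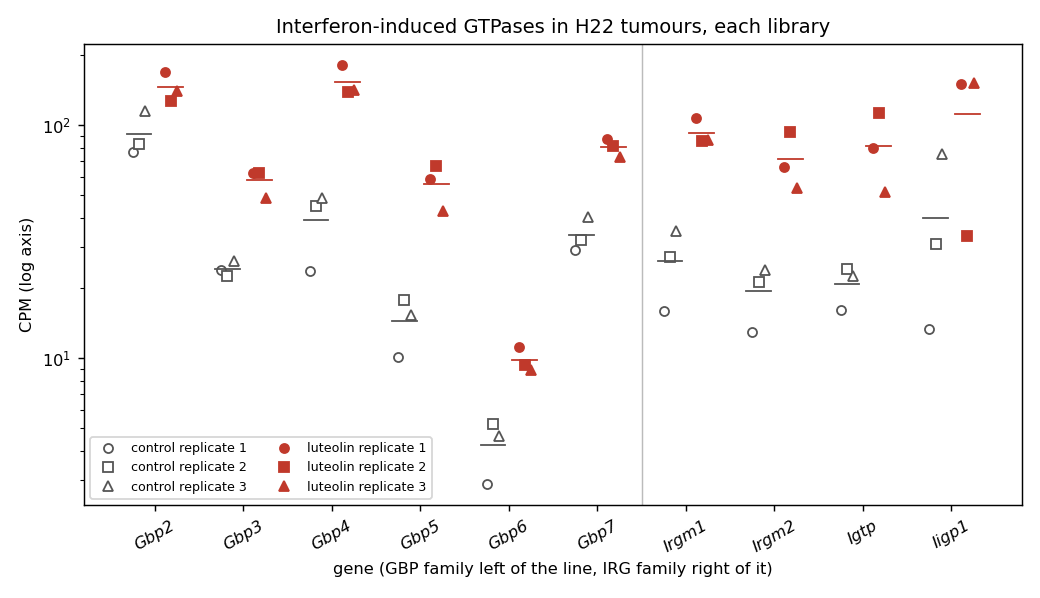
Normalized level in CPM (log axis) of the 10 GTPase genes in each library, with grey open symbols for the control group, red filled symbols for the luteolin group, one symbol shape per replicate number and a horizontal bar at the mean of 3 libraries. The 2 groups are separate for every gene except Iigp1, in which luteolin replicate 2 (33.5 CPM) lies below control replicate 3 (75.4 CPM).

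The promoter sequences show what the regulatory start of these genes looks like. RefSeq promoter windows on GRCm38.p6, from 250 bases before to 50 bases after the start site, were at hand for 7 of the 10 genes: Gbp2, Gbp3 with 2 windows, Gbp5, Gbp7, Irgm1, Irgm2 and Igtp. The ISRE core was searched as GAAA, 2 bases of any kind and GAAA again, and the GAS as TTCNNNGAA, both on either strand, and the letters of the 2 patterns can overlap. All 7 genes had an ISRE core, which 3.44% of the 32851 windows of the mouse genome held. A GAS was found in 4 of the 7 (Gbp5, Gbp7, Irgm2 and Igtp), against 8.30% of all windows, and the same 4 held both motifs, against 0.454%. The ISRE core nearest to the start site began 24 to 165 bases before it. Of the other GTPases of these families with a window, 6 of 9 had an ISRE core and 4 of 9 a GAS, whereas 0 of 4 windows of the constitutive relatives Irgq, Atl1, Atl2 and Atl3 had either. A match is a string of letters and was not tested as a binding site.

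**Figure D2:**
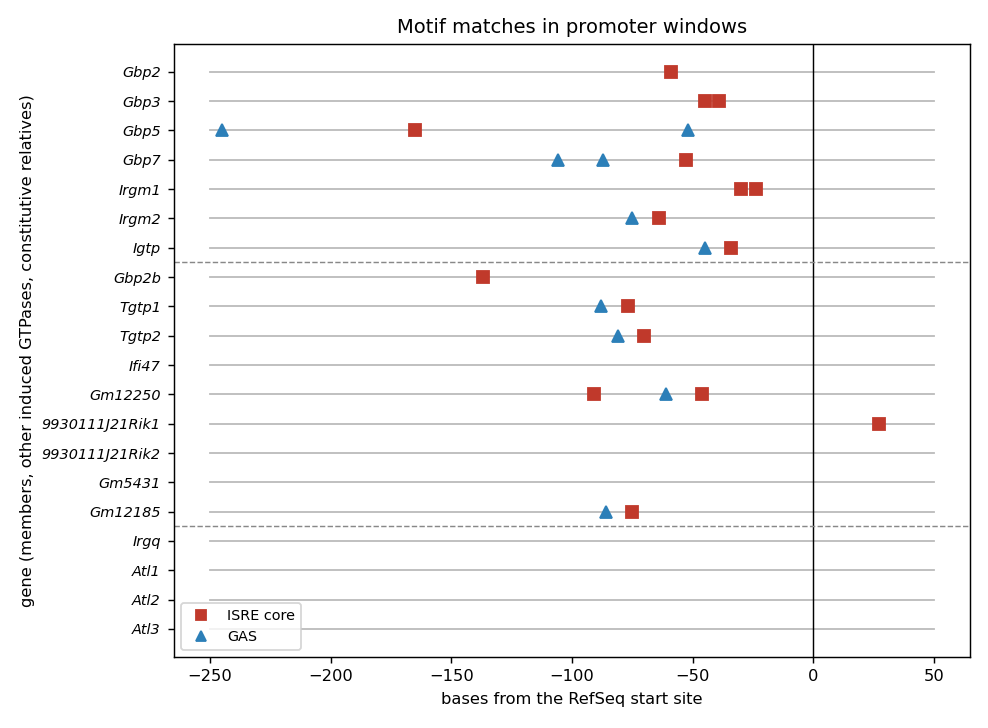
Position of each ISRE core (red square) and GAS (blue triangle) relative to the RefSeq start site, in bases, in the promoter windows of 7 GTPase genes (top), 9 other induced GTPases (middle) and 4 constitutive relatives (bottom). For Gbp3 the window that holds a motif is drawn, and the lower group holds no match.

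Among the GBP genes, Gbp4 and Gbp5 had the largest fold changes. Gbp4 was at 23.7, 45.1 and 48.5 CPM in control replicates 1 to 3 and at 181, 138 and 141 CPM in luteolin replicates 1 to 3. Its log2 fold change was 1.97 (standard error 0.30, edgeR adjusted p = 0.0393). Gbp5, a GBP linked to assembly of the NLRP3 inflammasome, was at 10.1, 17.7 and 15.3 CPM in the controls and at 58.7, 66.9 and 42.7 CPM after luteolin. The lowest luteolin library thus held more than 2 times the CPM of the highest control library for both genes. The log2 fold change of Gbp5 was likewise 1.97 (standard error 0.28, edgeR adjusted p = 0.0347). Gbp3 and Gbp7 changed less but with the least spread. Gbp3 was at 23.9, 22.6 and 26.0 CPM in the controls and at 62.6, 62.6 and 48.8 CPM in the luteolin group. Gbp7, a member with a role in the oxidative killing of bacteria, was at 29.2, 32.2 and 40.3 CPM against 87.0, 81.3 and 73.1 CPM. Their log2 fold changes were 1.26 (standard error 0.17, edgeR adjusted p = 0.0331) and 1.25 (standard error 0.18, edgeR adjusted p = 0.0347), and no library of one group reached the range of the other.

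Gbp2, which acts on bacterial vacuoles and with the non-canonical inflammasome, and Gbp6 did not pass the adjusted threshold. Gbp2 was at 76.4, 83.4 and 115 CPM in the controls and at 169, 127 and 140 CPM after luteolin, so the groups were separate but close. Its log2 fold change was 0.66 (95% interval 0.17 to 1.16, edgeR adjusted p = 0.151), the smallest of the 10. Gbp6 had the fewest counts, at 2.87, 5.21 and 4.61 CPM against 11.1, 9.33 and 8.84 CPM, with a log2 fold change of 1.20 (95% interval 0.43 to 1.98, edgeR adjusted p = 0.114, DESeq2 adjusted p = 0.00512). Of the 150-base stretches of the Gbp6 transcripts, 59.1% also occurred in another gene, mostly Gm43302, so its reads could have been split between copies. The summed level of Gbp6, Gbp10 and Gm43302 was 20.0, 32.1 and 39.0 CPM in the controls and 90.1, 80.1 and 67.4 CPM in the luteolin group, a log2 difference of 1.43. The other GBP genes among the 10 shared 0 to 8.77% of their stretches with another gene.

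Gbp5 and Gbp2 are shown because they had the largest and the smallest fold change among the GBP genes with a window, and because they differ in their motifs, with an ISRE core and 2 GAS matches in Gbp5 and a single ISRE core near the start in Gbp2. The windows lie on the plus strand at chr3:142496684-142496983 for Gbp5 and at chr3:142620413-142620712 for Gbp2 (GRCm38.p6), and capitals mark the ISRE core and GAS matches.
Gbp5: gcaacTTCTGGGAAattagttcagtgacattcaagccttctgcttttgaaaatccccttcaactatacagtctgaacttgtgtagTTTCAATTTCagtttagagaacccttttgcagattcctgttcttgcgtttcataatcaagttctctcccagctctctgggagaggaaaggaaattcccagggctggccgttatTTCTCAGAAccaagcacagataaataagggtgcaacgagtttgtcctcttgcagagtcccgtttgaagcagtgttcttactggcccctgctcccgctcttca
Gbp2: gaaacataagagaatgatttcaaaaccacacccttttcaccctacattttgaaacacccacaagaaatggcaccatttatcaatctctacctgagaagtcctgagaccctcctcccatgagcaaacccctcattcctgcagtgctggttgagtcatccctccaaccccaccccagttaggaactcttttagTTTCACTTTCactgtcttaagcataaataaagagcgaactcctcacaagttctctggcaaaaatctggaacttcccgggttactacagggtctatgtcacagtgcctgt

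Of the IRG genes, the 3 regulatory members rose together. Irgm1, Irgm2 and Igtp encode the IRG proteins that sit on the cell's own membranes and hold the effector IRG proteins in check there. Irgm1 was at 15.8, 27.2 and 35 CPM in the controls and at 107, 85.4 and 86.2 CPM in the luteolin group, and its log2 fold change was 1.84 with a standard error of 0.30. Irgm2 was at 12.9, 21.2 and 24.0 CPM against 66.2, 93.8 and 53.8 CPM, and the corresponding values were 1.88 and 0.31. Igtp was at 16.1, 24.0 and 22.4 CPM against 80, 113 and 51.6 CPM, and the corresponding values were 1.96 and 0.32. Each had an edgeR adjusted p of 0.0437, and in each the lowest luteolin library exceeded the highest control library. When single libraries were left out, the log2 fold changes ranged from 1.56 to 2.11 for Irgm1, from 1.62 to 2.06 for Irgm2 and from 1.68 to 2.15 for Igtp. The transcripts of Irgm1 and Iigp1 shared no 150-base stretch with another gene, and those of Igtp and Irgm2 shared 16 stretches with each other.

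The Igtp and Irgm2 windows are shown because the GAS and the ISRE core stand side by side in both, with 2 bases between them. They lie on the plus strand at chr11:58199306-58199605 for Igtp and at chr11:58214727-58215026 for Irgm2 (GRCm38.p6), with the motifs in capitals.
Igtp: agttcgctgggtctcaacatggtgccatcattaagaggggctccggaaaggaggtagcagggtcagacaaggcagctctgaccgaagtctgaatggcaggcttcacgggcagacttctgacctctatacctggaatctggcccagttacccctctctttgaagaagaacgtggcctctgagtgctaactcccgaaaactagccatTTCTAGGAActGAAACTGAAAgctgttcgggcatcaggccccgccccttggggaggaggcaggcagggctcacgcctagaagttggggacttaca
Irgm2: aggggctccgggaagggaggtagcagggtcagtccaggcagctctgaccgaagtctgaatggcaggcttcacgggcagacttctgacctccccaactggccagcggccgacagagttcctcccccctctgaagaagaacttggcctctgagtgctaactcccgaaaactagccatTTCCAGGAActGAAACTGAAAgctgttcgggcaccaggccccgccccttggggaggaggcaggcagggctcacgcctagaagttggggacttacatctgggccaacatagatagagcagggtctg

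This arrangement, a GAS followed after 2 bases by an ISRE core, was searched on both strands after the sequences had been seen. It occurred in 5 of the 32851 windows (0.0152%), and all 5 belonged to IRG-type GTPases on chromosome 11, namely Igtp, Irgm2, Tgtp1, Tgtp2 and Gm12185. The 29-base segments around it begin with the same 4 bases and are close in sequence. They are shown to let the copies be compared, in the direction of each gene, with the motif letters in capitals. Tgtp1 (chr11:48992310-48992338), Tgtp2 (chr11:49064269-49064297) and Gm12185 (chr11:48927244-48927272) lie on the minus strand, and Igtp (chr11:58199507-58199535) and Irgm2 (chr11:58214898-58214926) on the plus strand.
Igtp: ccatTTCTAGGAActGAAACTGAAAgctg
Irgm2: ccatTTCCAGGAActGAAACTGAAAgctg
Tgtp1: ccatTTCCAGGAAtcGAAACTGAAAccta
Tgtp2: ccatTTCCAGGAAtcGAAACCGAAAccta
Gm12185: ccatTTCCAGGAAtaGAAAGTGAAAccta

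All 5 genes with the side-by-side motifs had log2 fold changes between 1.49 and 2.06, but this choice followed the sequences and carries no test. Irgm1, whose window at chr11:48871371-48871670 on the minus strand held 2 overlapping ISRE cores and no GAS, had a log2 fold change of 1.84, within the same range.

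Iigp1, an effector IRG protein that builds up on parasite vacuoles, was the one gene whose groups overlapped. It was at 13.3, 30.7 and 75.4 CPM in the controls and at 150, 33.5 and 152 CPM in the luteolin group. Luteolin replicates 1 and 3 were about alike and above every control, whereas luteolin replicate 2 lay among the controls. The log2 fold change was 1.49 (95% interval -0.29 to 3.27, edgeR adjusted p = 0.322). It was 1.95 without luteolin replicate 2, 2.34 without control replicate 3 and 1.08 without control replicate 1, and none of these fits gave an adjusted p under 0.05.

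The libraries differed in base composition, and among the 10 genes Iigp1 lay at the low end of GC content. GC content was set against how far each gene stood from its average over the libraries. Over 14635 genes, Spearman's rho was 0.43, -0.18 and -0.54 for control replicates 1 to 3, and -0.18, 0.45 and -0.37 for luteolin replicates 1 to 3. Both signs occurred in each group. The transcripts of Iigp1 had the lowest GC content of the 10 genes, 39.4%, and those of Igtp the highest, 49.8%. In luteolin replicate 2, Iigp1 was 2.17 log2 units below the mean of the other luteolin libraries and Igtp 0.81 units above it. Over the 10 genes, this difference and the GC content had a Pearson correlation of 0.80 and a Spearman correlation of 0.52, given as a description of genes that share their libraries. For control replicate 1 against the other controls the values were 0.69 and 0.56. Both were weaker over the 24 GTPase genes of these families with a GC content, at 0.54 and 0.42 for luteolin replicate 2 and at 0.38 and 0.36 for control replicate 1. Nearest to Iigp1 in GC content among them were Gvin1 (40.3%) and F830016B08Rik (40.4%). In luteolin replicate 2, Gvin1 was 0.45 units below the mean of the other luteolin libraries and F830016B08Rik 0.54 units above it. The part of base composition in the values of Iigp1 was not tested. With offsets for GC content and length, an alternative chosen after this spread had been seen, Iigp1 had a log2 fold change of 1.56 (edgeR adjusted p = 0.0608), while the same 7 of the 10 genes had an adjusted p under 0.05. That fit called 4.12% of its genes higher and moved the median of all genes to -0.24.

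**Figure D3:**
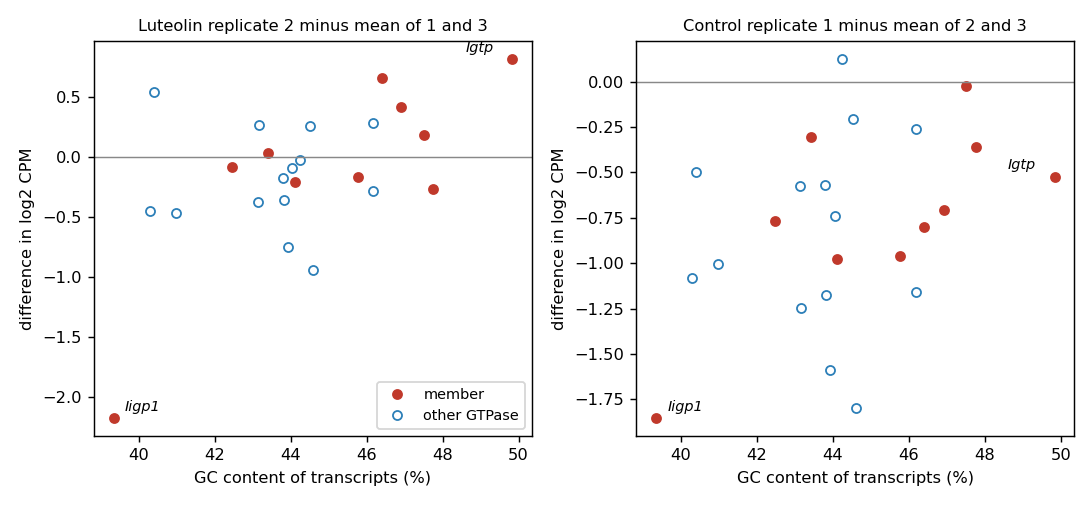
Difference in log2 CPM between luteolin replicate 2 and the mean of luteolin replicates 1 and 3 (left), and between control replicate 1 and the mean of control replicates 2 and 3 (right), against the GC content of the transcripts in percent. Red filled points are the 10 GTPase genes and blue open points the other GTPases. Iigp1, with the lowest GC content, has the largest negative difference in both panels.

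Per kilobase of all exons, the first and the last ranks by level were the same in both groups, but the share of Gbp2 was not. Levels of different genes were compared as CPM per kilobase of all exons of a gene, so long rarely used exons lower a value. For Gbp4 all exons came to 7494 bases, but its median coding transcript had 752 bases. For Gbp2 both lengths were 2516 bases. The rank of Gbp4, the first rank of Gbp2 and the shares therefore hold for all-exon lengths only. In the control group Gbp2 led with 36.5 ± 8.28 CPM per kilobase (SD, n = 3) and made up 43.3% of the sum over the 10 genes. Igtp followed with 10.3 ± 2.06. Gbp3, Iigp1, Gbp7, Irgm2, Gbp4 and Irgm1 lay between 7.40 and 4.48 CPM per kilobase, each within the spread of its neighbours, with Gbp5 at 2.16 ± 0.588 and Gbp6 at 0.711 ± 0.204 below them. In the luteolin group Gbp2 was still first, at 57.8 ± 8.50 CPM per kilobase, but its share was 26.9% ± 3.01 against 43.3% ± 3.57 in the controls, and the groups did not overlap. The share of Igtp was 16.6%, 25.8% and 13.3% in luteolin replicates 1 to 3 and 12.4%, 14.3% and 10.3% in the controls. It was highest in luteolin replicate 2, and the groups overlapped. Gbp4 moved from rank 7 to rank 3, with 20.5 ± 3.22 CPM per kilobase, and Gbp3 from rank 3 to rank 6, at 17.8 ± 2.43. Irgm2 and Iigp1 lay between them, and these 4 genes were within each other's spread, so their order is not fixed by these libraries. Gbp5 and Gbp6 remained ranks 9 and 10.

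Summed over the 6 GBP genes, the level was 166, 206 and 250 CPM in the controls and 570, 486 and 454 CPM in the luteolin group, a log2 difference of 1.29. For the 4 IRG genes the sums were 58.2, 103 and 157 CPM against 404, 325 and 344 CPM, a log2 difference of 1.86. Neither sum overlapped between the groups. The log2 ratio of the IRG sum to the GBP sum was -1.51, -1.0 and -0.67 in the controls and -0.50, -0.58 and -0.40 in the luteolin group, so the IRG share was larger in every luteolin library. With 3 libraries per group, an exact two-sided permutation test of such a value cannot give a p under 0.1. Gbp2, the GBP gene with the smallest log2 fold change (0.66), weighed heavily in the GBP sum. It held 76.4, 83.4 and 115 CPM of that sum in the controls and 169, 127 and 140 CPM in the luteolin group. The ratio was not computed without Gbp2, so a shift between the families apart from this gene was not tested.

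The 10 genes followed a common pattern across the libraries. The Pearson correlation of a gene's log2 CPM with the mean of the other 9 ranged from 0.92 to 1.00 over 6 libraries for every gene but Iigp1, at 0.67, and these points include the step between the groups. Within the luteolin group the order of the libraries differed between genes. Gbp3, Gbp5, Irgm2 and Igtp had their highest value in luteolin replicate 2, for Gbp3 about level with luteolin replicate 1, and their lowest in luteolin replicate 3, and the other 6 genes were not highest in luteolin replicate 2. Outside the gene lists, 37 of 14750 genes had a correlation over 0.98 with the mean of the 10. The 5 most alike were Pdpn, Gm43302, C1s1, Bst1 and Il1rn. Pdpn, which encodes the membrane glycoprotein podoplanin, was at 2.07, 6.60 and 7.73 CPM in the controls and at 65.6, 34.7 and 39.0 CPM after luteolin. C1s1 encodes a protease of the first complement component, Bst1 an ADP-ribosyl cyclase and Il1rn the interleukin-1 receptor antagonist, and their log2 fold changes were 2.17, 1.71 and 1.87.

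Of the other GTPases of these families, 15 were tested. At the study's threshold 12 of the 15 were higher and 0 lower, with or without luteolin replicate 2, but 1 passed the adjusted threshold. This was Gbp8, at 8.4, 8.11 and 11.6 CPM in the controls and 28.5, 34.2 and 28.8 CPM in the luteolin group (log2 fold change 1.71, edgeR adjusted p = 0.0331). Gbp2b, at 17.2 to 46.9 CPM in the controls and 105 to 158 CPM after luteolin, had a log2 fold change of 1.97 (edgeR adjusted p = 0.0577). The effector IRG genes Tgtp1, Tgtp2 and Ifi47 had log2 fold changes of 2.06, 1.88 and 1.88 with adjusted p values of 0.114, 0.103 and 0.0531. Tgtp1 and Tgtp2 shared 64.9% and 68.4% of their 150-base stretches with other genes, mostly each other, and their summed level differed by 2.11 log2 units. The very large inducible GTPases Gvin1 and Gvin2 had log2 fold changes of 1.06 and 1.13, and Gbp10, Gm12185, Gm4951, 9930111J21Rik1 and 9930111J21Rik2 had values between 1.02 and 1.49. F830016B08Rik and Gm5431, at 0.68 and 0.44, were below the study's fold threshold.

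Gbp9 was the family member with the smallest difference. It was at 31.3, 37.1 and 58.7 CPM in the controls and at 50.9, 37.8 and 47.3 CPM in the luteolin group, and the groups overlapped fully. Its log2 fold change of 0.10 had a 95% interval of -0.53 to 0.73, which lies below the point estimate of every GTPase described above except Gbp2, F830016B08Rik and Gm5431. The log2 ratio of Gbp9 to the mean of the 10 genes was 0.91, 0.55 and 0.97 in the controls and -0.63, -0.81 and -0.41 in the luteolin group. None of the constitutive relatives was called at either threshold. Irgq, an IRG-like gene that interferon does not induce, had a log2 fold change of -0.44 (edgeR adjusted p = 0.231). Its luteolin libraries, at 48.7, 49.6 and 44.3 CPM, all lay below the controls, at 76.4, 63.7 and 52.8 CPM. The atlastins Atl1, Atl2 and Atl3, relatives of the GBP family that shape the endoplasmic reticulum, had log2 fold changes of -0.16, -0.02 and -0.19.

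**Figure D4:**
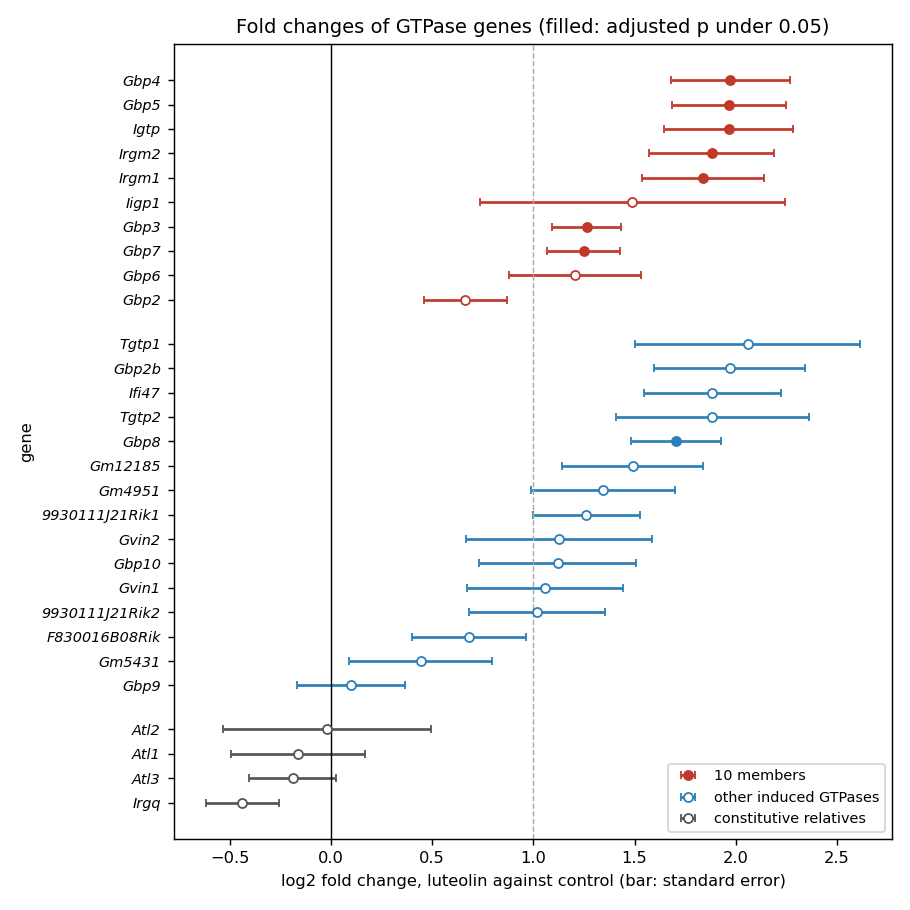
Log2 fold change of luteolin against control, with its standard error, for the 10 GTPase genes (red), 15 other induced GTPases (blue) and 4 constitutive relatives (grey). Filled points have an adjusted p under 0.05, and the dashed line marks a log2 fold change of 1. All 10 genes lie above 0, from 0.66 to 1.97, and the constitutive relatives lie between -0.44 and -0.02.

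The upstream pathway was measured in the same libraries. Ifng, the gene of interferon-γ, was at 0.157, 0.617 and 0.201 CPM in the controls and at 4.76, 2.98 and 2.52 CPM in the luteolin group. The groups were separate, with a log2 fold change of 3.39 (edgeR adjusted p = 0.0665, DESeq2 adjusted p = 2.35e-05). Of the 12 genes of interferon-γ, its receptor and its inducers, 7 were higher and 0 lower at the study's threshold, and without luteolin replicate 2 the counts were the same. Il18r1, a receptor chain for the inducer interleukin-18, passed the adjusted threshold with a log2 fold change of 2.49 (edgeR adjusted p = 0.0429). Il18rap, the second chain of that receptor, had a log2 fold change of 2.60. Il12a and Il12b, of the inducer interleukin-12, Il12rb2, of its receptor, and Il27 had log2 fold changes of 3.07, 2.72, 2.04 and 2.05, at levels under 6 CPM in every library. Il12rb1 was at 0.78, Ebi3 at 0.34 and Il18 at -0.33.

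Both interferon-γ receptor genes overlapped between the groups. Ifngr1 was at 65.4 to 78.7 CPM in the controls and at 67.1, 131 and 71.7 CPM in the luteolin group (log2 fold change 0.33, 95% interval -0.33 to 0.98). Ifngr2 was at 78.4 to 85.1 CPM against 79.3 to 96.5 CPM (log2 fold change 0.07, 95% interval -0.27 to 0.40). Of the 9 type I and type III interferon genes listed, 8 had 0 counts in all 6 libraries. At that level up to 3 read pairs per library could be missed by counting error alone, and 1 count of the table need not be 1 read pair. The type I receptor genes Ifnar1 and Ifnar2 had log2 fold changes of -0.02 and 0.34. In Ifnar2 the groups were separate but close, at 35.5 to 38.8 CPM in the controls and 38.9 to 56.5 CPM after luteolin. Ifnlr1, of the type III receptor, was at 0.214, 0.123 and 0 CPM in the controls. In the luteolin group it was at 1.37, 12.1 and 1.86 CPM, so the groups were separate, with by far the highest value in luteolin replicate 2. Its log2 fold change was 5.47 (edgeR adjusted p = 0.108) and 3.82 without luteolin replicate 2, past the study's threshold in both fits.

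Of the 13 signal transducers, 6 were higher and 0 lower at the study's threshold. Nlrc5, a transactivator of MHC class I genes, was at 21.6, 22 and 24.3 CPM in the controls and at 74.9, 172 and 73.1 CPM in the luteolin group (log2 fold change 2.23, edgeR adjusted p = 0.0437). It was highest in luteolin replicate 2, and without that library the log2 fold change was 1.72. Batf2, a partner of IRF1 in activated macrophages, had a log2 fold change of 2.30 (edgeR adjusted p = 0.0577). Jak1, Irf8 and Ciita, at 1.10, 1.28 and 1.14, lost their call at the study's threshold without luteolin replicate 2. Irf1, the gene of an interferon regulatory factor that drives GBP transcription, was at 179, 158 and 159 CPM in the controls and at 195, 229 and 174 CPM after luteolin, so the groups overlapped. Its log2 fold change was 0.27 (95% interval -0.10 to 0.64), and that of Irf2 was 0.70. Stat2, Stat3, Jak2, Irf9 and Tyk2 had log2 fold changes of 0.82, 0.89, 0.45, 0.22 and -0.30. Among 7 inhibitors of the pathway, Socs3 (1.76) and Socs1 (1.32) were past the study's threshold, and Socs1, at 0.84 without luteolin replicate 2, lost its call there.

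Of 21 other targets of interferon-γ, 14 were higher and 0 lower at the study's threshold (11 without luteolin replicate 2), and 3 passed the adjusted one. Nos2, which makes nitric oxide, was at 5.26, 14.2 and 9.0 CPM in the controls and at 149, 81.3 and 133 CPM in the luteolin group, a log2 fold change of 3.68 (edgeR adjusted p = 0.0331). Cd274, the gene of PD-L1, and Serpina3g, a serpin of activated T cells and macrophages, had log2 fold changes of 1.87 and 1.84. The chemokine gene Cxcl9 was at 32.3 to 68.8 CPM against 150 to 164 CPM (log2 fold change 1.56, edgeR adjusted p = 0.0531). Cxcl10, a related chemokine that both interferon types induce, was at 24.5, 34.0 and 23.8 CPM in the controls and at 26.8, 41.1 and 22.6 CPM after luteolin, with a log2 fold change of 0.14 (95% interval -0.52 to 0.79).

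Of 23 type I interferon-stimulated genes, 12 were higher and 0 lower at the study's threshold (8 without luteolin replicate 2), with a median log2 fold change of 1.03. Oasl2 and Zbp1, a sensor of unusual nucleic acids, passed the adjusted threshold with log2 fold changes of 1.37 and 2.07. Ifit3 was at 1.56 and Ifit1 at 0.68. Isg15, at 1.48, was past the study's threshold with all libraries and at 0.94 without luteolin replicate 2. In Isg20, Ddx58 and Herc6 all luteolin libraries lay below all controls, with log2 fold changes of -0.38, -0.40 and -0.59 that passed neither threshold.

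The genes that act beside the GTPases differed between processes. Loading of GBP and IRG proteins onto vacuoles needs the conjugation machinery of autophagy. The list used for it held 14 genes, among them the ubiquitin-related Sqstm1, Ubqln1, Traf6 and Trim21. Of the 14 genes, 1 was past the study's threshold and 0 the adjusted one in edgeR, with a median log2 fold change of 0.02. DESeq2 gave no adjusted p for the 1 gene past the study's threshold. This gene, Map1lc3a, was at 38 CPM in luteolin replicate 2 and at 1.79 to 4.19 CPM in the other libraries, and its log2 fold change of 2.46 was 0.42 without that library. Of 11 inflammasome genes, 5 were higher and 0 lower at the study's threshold, with or without luteolin replicate 2. Il1b rose from 14.5, 16.8 and 11.1 CPM to 165, 122 and 57.4 CPM (log2 fold change 3.02, edgeR adjusted p = 0.0331). Casp1, Casp4 and Gsdmd, which encode the inflammatory caspases and the pore-forming protein they cleave, had log2 fold changes of 1.87, 1.84 and 1.59. Aim2, a DNA sensor that works with GBP proteins against cytosolic bacteria, was at 0.03, and its groups overlapped.

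**Figure D5:**
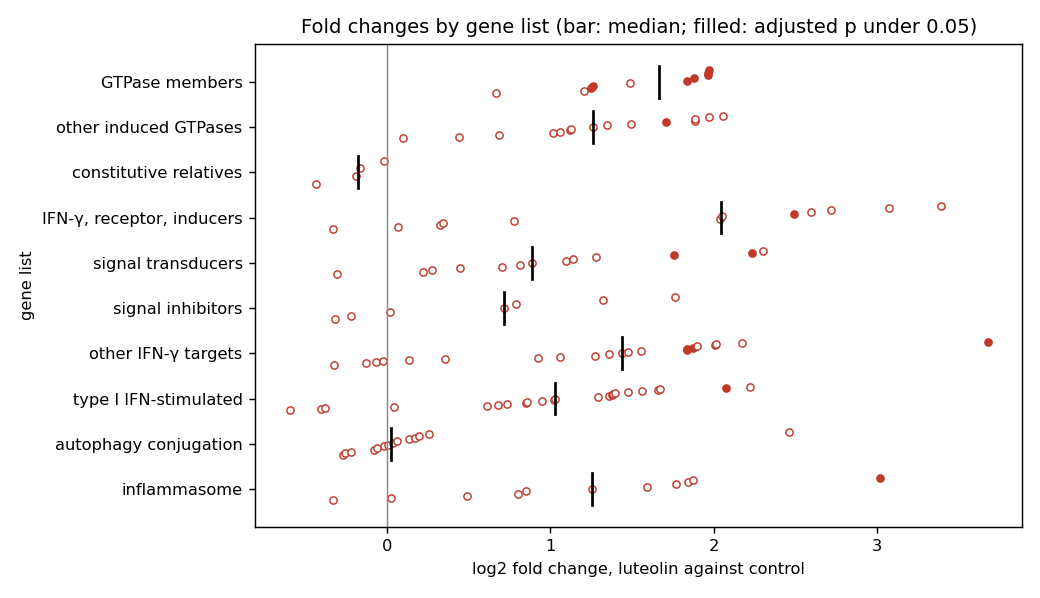
Log2 fold change of luteolin against control for each tested gene of the GTPase, pathway and downstream lists, one point per gene, with the list median as a vertical bar and filled points for an adjusted p under 0.05. The median is 1.66 for the 10 GTPase genes, -0.18 for the constitutive relatives and 0.02 for the list of autophagy and ubiquitin-related genes.

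Markers of several cell types that can express these GTPases moved with the groups, and their part in the result was not tested. The summed level of 5 pan-leukocyte genes was 199 to 241 CPM in the controls and 428 to 601 CPM in the luteolin group, and 4 of the 5 were higher at the study's threshold (1 of 5 without luteolin replicate 2). All 9 T cell genes were higher at that threshold, with or without luteolin replicate 2, and Cd8a passed the adjusted one. Their sum was 15.4 to 17.7 CPM against 52.2 to 102 CPM. The sum of 9 macrophage genes was 979 to 1152 CPM against 1530 to 2311 CPM, with 2 of 9 past the study's threshold. The sum of 7 neutrophil genes was 18.9 to 22.3 CPM against 79.6 to 181 CPM (5 of 7), although Ly6g, which defines mouse neutrophils, stayed under 0.6 CPM in every library. The fibroblast sum was 1406 to 1572 CPM against 2009 to 4969 CPM (4 of 6, and 3 of 6 without luteolin replicate 2). The endothelial sum was 88.1 to 108 CPM against 101 to 270 CPM (2 of 7, and 0 of 7 without luteolin replicate 2). Of the 5 natural killer cell genes tested, 4 were past that threshold, and Eomes was at -0.86. The summed level of that list was nevertheless lower, at 72.5 to 98 CPM in the controls against 51.3 to 66.3 CPM in the luteolin group, with Eomes making up most of it. For dendritic cells the count was 4 of 6 (3 without luteolin replicate 2) and for B cells 2 of 6 (1 without that library). For proliferation genes it was 0 of 8, with 0 lower in each of these lists. The dendritic cell sum overlapped between the groups, unlike the count for that list. It was at most 43.1 CPM in the controls and 55.2, 72.4 and 32.6 CPM in luteolin replicates 1 to 3. In luteolin replicate 3 the dendritic cell sum lay below every control, and the lowest log2 fold change in that list was -0.33. The 7 keratinocyte genes tested were all higher at the study's threshold, with or without luteolin replicate 2.

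The GTPase levels were also set against 3 of these lists, and with all libraries the ratios overlapped between the groups. The sum of the 10 genes per CPM of the pan-leukocyte list was 1.13, 1.55 and 1.69 in the controls and 2.23, 1.35 and 1.86 in the luteolin group. Per CPM of the macrophage list it was 0.195, 0.316 and 0.392 against 0.636, 0.351 and 0.434. In both ratios the overlap came from luteolin replicate 2, and the other luteolin libraries lay above every control. Per CPM of the T cell list it was 14.6, 18.1 and 23.0 against 18.6, 7.95 and 13.1, with the lowest value in luteolin replicate 2, and the groups overlapped with or without that library. These ratios describe whole tumours and do not say which cells held the transcripts.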

How the data were processed

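The data were 3 control and 3 luteolin RNA-seq libraries of tumour tissue. The submitters' processing notes name bcl2fastq 2.0, HISAT2, StringTie and DESeq2 and the builds mm39 and rn6, with no role given, and the labels and the paper name different RNA kits. The deposited table holds estimated counts per gene symbol, as whole numbers made by the authors. Among low values (1 to 40), 44.8% were divisible by 4, so 1 unit need not be 1 read pair. Genes were tested with edgeR 4.0.16 (R 4.3.3) after TMM normalization and filterByExpr, by its quasi-likelihood test, two-sided, with p values adjusted by the Benjamini-Hochberg procedure, and the steps were checked on simulated counts. DESeq2 1.42.0, limma 3.58.1 (voom), other normalizations and filters, values divided by 4, a replicate block and leaving out each library were alternatives. Exon lengths, GC content and shared stretches came from GENCODE M21 on GRCm38, to which 21053 of 21720 symbols matched, and promoters from RefSeq. One gene of the lists is not reported here. The named genes were the 10 GTPases, every other detected gene of the other GTPase, interferon-γ and transducer lists, genes past the adjusted threshold or of smallest p in the other lists, and the 5 genes most alike. The members and lists were chosen with earlier results of these data known.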

Additional observations from a re-analysis of the deposited data

How the results depend on the processing

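The log2 fold changes of the 10 GTPase genes were recomputed under 15 alternatives, and all 150 values were above 0, from 0.43 to 2.34, of which 70 had an adjusted p under 0.05. The number of genes at an adjusted p under 0.05, 7 with all libraries, ranged from 0 to 7 with single libraries left out, and the cause was not tested. It was 7 under RLE and upper-quartile normalization, where 1.4% and 1.5% of all genes were called higher. With no filter or a stricter one it was also 7, beside 0.877% and 2.0% of all genes. It was again 7 with values divided by 4 (1.95% of all genes) and with offsets for GC content and length (4.12%). With DESeq2 it was 8, and 8.67% of all genes fitted, with or without a p value, were called higher. With limma's voom with sample quality weights it was 10, and 12.6% of all genes were called higher and 8.76% lower. With the replicate number as a block it was 0 in edgeR, while 9 of the 10, and 10.7% of all genes in the same direction, had an unadjusted p under 0.05, the smallest adjusted p was 0.0768 and 35 genes of the whole table were called. The block left 8 of the 10 past the study's threshold, where 8.64% of all genes were higher. Same-numbered samples did not deviate together (Pearson correlations of -0.20, -0.09 and 0.06 across 14963 genes), so the numbers were not read as pairs. Over all alternatives, 7 to 9 of the 10 genes were past the study's threshold. The share of all genes higher there ranged from 7.52% (without luteolin replicate 2) to 13.6% (without luteolin replicate 3). Of the pathway and family genes 48 to 60 were past it, with 60 of 121 under the main settings. The least covered gene was Gbp6, with 201 to 781 counts per library.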
